A study of Mus musculus with 2 samples.

Results

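The genes of the DNA methylation cycle were followed through an ATAC-seq experiment on primary mouse cardiac fibroblasts. The 8 genes were Tet1, Tet2, Tet3, Tdg, Dnmt1, Uhrf1, Dnmt3a and Dnmt3b, and every peak that the deposited table assigned to one of these symbols was taken. They held 28 of the 63316 peaks in the table, and 8 of the 16934 genes with at least 1 peak. ATAC-seq uses a transposase to cut and tag open chromatin, so the density of reads at a site measures its accessibility and not the level of a transcript.

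Methylation of cytosine at CpG dinucleotides is written and erased by these proteins. DNMT3A and DNMT3B place new methyl groups, whereas DNMT1, guided by UHRF1 to DNA that has just been copied, restores them on the daughter strand. The TET enzymes oxidize 5-methylcytosine to 5-hydroxymethylcytosine and further products, and TDG cuts the most oxidized bases out so that base excision repair can put back plain cytosine. In cardiac fibroblasts, the cells that lay down scar collagen once TGF-β turns them into myofibroblasts, the study asked what TET3 and the stretch-activated channel Piezo2 do, and the libraries described here address Piezo2.

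There were 2 libraries, 1 per condition. The cells of the SCR library received a scrambled siRNA and those of the siPiezo2 library an siRNA against Piezo2, and both were then exposed to TGF-β at 5 ng/ml for 24 h, so no library without TGF-β was compared. The labels give no strain, age or sex for these cells, nor the number of cultures or animals behind a library. The design text deposited with the series names deletion of Tet3 by a Cre virus in place of the siRNA, and the methods text describes minced tissue and a kit other than the one on the labels, which the reagent list of the same methods does name; the sample labels were followed here. With 1 library per condition no difference between the conditions could be tested, and every interval below covers counting error only.

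Each value of the table is a read density, in reads per kb over a window of 2000 bp around the peak, after the authors' normalization, which changed the densities of both libraries. The reads recovered from these densities summed to 4615335 over the SCR windows and 2754046 over the siPiezo2 windows. Of all windows 19.8% overlapped another, so these totals count some reads more than once. Piezo2 itself, whose transcript the siRNA targets, carried 14 peaks, and their densities added up to 334 in SCR against 242 in siPiezo2 (log2 ratio -0.46), which is no measure of its transcript. Among marker genes of the labelled cell type, 8 of 9 fibroblast markers carried a peak, the exception being Thy1, and their 31 peaks summed to 1222 in SCR and 1128 in siPiezo2. Their log2 ratios ran from -0.50 at Col1a2 and -0.44 at Col1a1, the genes of collagen I, to 0.21 at Dcn, and Ddr2 held the largest share of the sum at 464 and 463. Of the markers of other cells, 2 of 5 cardiomyocyte genes (none at Myh6, Ttn or Nppa), 2 of 4 macrophage genes (none at Adgre1 or Cd68), 4 of 4 endothelial genes and 3 of 3 mural genes carried peaks. Their summed densities were 84.0 and 82.5 for cardiomyocytes, 133 and 112 for macrophages, 359 and 382 for endothelial cells and 413 and 340 for mural cells, in SCR and siPiezo2 respectively. Whether a different mix of cells in the 2 libraries took part in the values below was not tested.

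The start regions of the genes were rich in CpG, the dinucleotide that their own products modify. RefSeq (GRCm38.p6) gave 13 promoter windows of 300 bp for the 8 genes, and these held a median of 26 CpG sites and 69.7% G and C, against 7 sites and 52.7% over all 32851 windows. The 250 bases upstream of a start are given for 6 genes, with each CpG in capitals and everything else in lower case. Tet1, Tet2 and Tet3 are shown because all their peaks near a start were lower in siPiezo2, Tdg and Uhrf1 because the peaks at their starts were higher, and Dnmt3b because no peak lay near its RefSeq start. Lower peaks near a start were not particular to the TET genes: that of Dnmt3a, not shown here, read 28.1 in SCR and 21.2 in siPiezo2. The counting intervals of all these start peaks took in 0.
Tet1 (chr10:62887325-62887574, minus strand): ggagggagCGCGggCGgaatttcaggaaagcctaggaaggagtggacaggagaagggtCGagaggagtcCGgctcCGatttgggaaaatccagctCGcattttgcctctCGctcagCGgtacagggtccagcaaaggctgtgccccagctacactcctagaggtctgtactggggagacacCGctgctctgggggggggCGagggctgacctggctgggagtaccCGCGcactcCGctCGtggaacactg
Tet2 (chr3:133544391-133544640, minus strand): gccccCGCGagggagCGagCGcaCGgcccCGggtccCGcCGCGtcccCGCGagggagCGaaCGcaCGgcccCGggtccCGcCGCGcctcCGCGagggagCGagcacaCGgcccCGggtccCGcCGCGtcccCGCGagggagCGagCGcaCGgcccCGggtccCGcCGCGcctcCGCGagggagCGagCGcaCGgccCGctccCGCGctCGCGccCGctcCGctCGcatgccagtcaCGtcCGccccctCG
Tet3 (chr6:83441679-83441928, minus strand): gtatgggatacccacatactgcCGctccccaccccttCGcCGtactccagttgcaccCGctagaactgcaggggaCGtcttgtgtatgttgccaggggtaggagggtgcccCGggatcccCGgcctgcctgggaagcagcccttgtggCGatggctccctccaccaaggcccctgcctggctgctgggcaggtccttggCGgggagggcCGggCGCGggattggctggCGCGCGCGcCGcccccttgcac
Tdg (chr10:82629588-82629837, plus strand): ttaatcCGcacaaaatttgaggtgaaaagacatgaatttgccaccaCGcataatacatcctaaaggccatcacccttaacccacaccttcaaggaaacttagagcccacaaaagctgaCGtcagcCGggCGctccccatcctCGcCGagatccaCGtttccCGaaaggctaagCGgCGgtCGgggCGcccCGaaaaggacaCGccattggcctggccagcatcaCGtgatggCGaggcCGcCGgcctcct
Uhrf1 (chr17:56303087-56303336, plus strand): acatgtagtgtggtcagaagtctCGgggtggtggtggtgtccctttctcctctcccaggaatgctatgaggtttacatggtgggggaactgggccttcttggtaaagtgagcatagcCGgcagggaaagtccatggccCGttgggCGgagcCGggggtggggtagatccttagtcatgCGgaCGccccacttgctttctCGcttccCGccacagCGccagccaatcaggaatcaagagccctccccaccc
Dnmt3b (chr2:153649199-153649448, plus strand): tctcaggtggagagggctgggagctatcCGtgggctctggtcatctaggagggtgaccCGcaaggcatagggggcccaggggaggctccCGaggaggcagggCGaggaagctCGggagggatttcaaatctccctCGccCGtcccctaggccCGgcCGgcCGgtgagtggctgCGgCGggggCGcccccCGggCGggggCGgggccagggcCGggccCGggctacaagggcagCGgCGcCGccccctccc

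The Tet2 window was among the densest in CpG of any promoter, with 57 sites, which put it at percentile 99.9 of all windows. The windows of Dnmt3a at its upstream starts had 46 and 47 sites, that of Tdg 26, that of Tet3 22 and that of Tet1 17. Dnmt1 spanned the widest range, with 33, 12 and 2 sites at its 3 starts. The 2 starts of Uhrf1 had 12 and 33 sites.

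**Figure D1:**
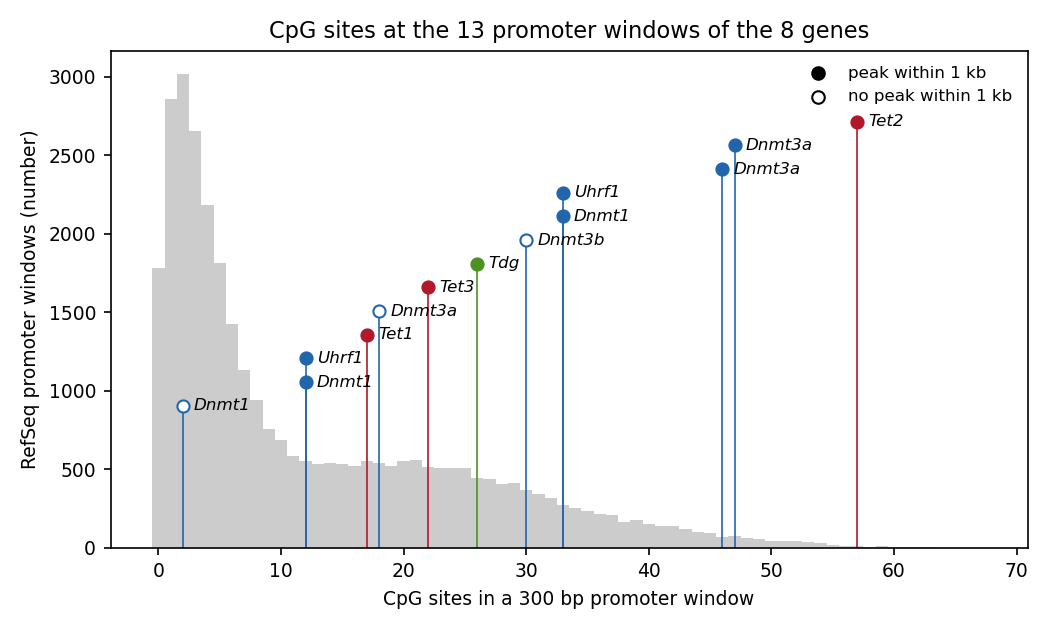
The number of CpG sites in a 300 bp promoter window is on the horizontal axis, grey bars give the number of RefSeq windows at each count, and each lollipop is 1 of the 13 windows of the 8 genes (red TET genes, green Tdg, blue methyltransferase genes and Uhrf1; the heights of the lollipops only keep the names apart). Filled circles have an ATAC-seq peak within 1 kb and open circles do not; Tet2, with 57 sites, lies far to the right and the Dnmt1 window with 2 sites lies in the bulk.

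A few short motifs were searched on both strands of these windows. The GC box GGGCGG lay in 10 of the 13 windows and in 35.7% of all windows, and the CCAAT box in 6 of 13 and in 37.4%. The cAMP response element TGACGTCA was found in the Tdg window, where it can be read in the sequence above, and in 1.79% of all windows. The core of the TEAD site, GGAATG, lay in 1 member window, that of Uhrf1 shown above, and in 14.7% of all windows. The E2F site TTTCCCGC and the CArG box of SRF were in none of the 13 windows, with 1.07% and 1.63% of all windows holding them. These are matches of letters, and binding at them was not measured here.

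A peak lay within 1 kb of 10 of the 13 RefSeq starts, and 7 of the 8 genes had such a start. By the table's own distances to any transcript start, which also count the Dnmt3b peak as near, 70.9% of all genes with a peak had one within 1 kb. The distances came from the transcript to which the table ties each peak, since the coordinates of its peaks follow GRCm39. The peak centre lay 5 bp from the start at Tet3, 20 bp at Tet2, 31 bp at the middle Dnmt1 start, 75 bp upstream at Tdg, 89 bp upstream at Uhrf1, 172 bp downstream at Tet1 and 553 bp upstream at Dnmt3a. The starts with no peak within 1 kb were the most upstream start of Dnmt1, the downstream start of Dnmt3a and the start of Dnmt3b. Of the 28 peaks the table placed 19 in introns, 6 in promoters within 1 kb, 2 in a 5′ UTR and 1 in an exon.

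**Figure D2:**
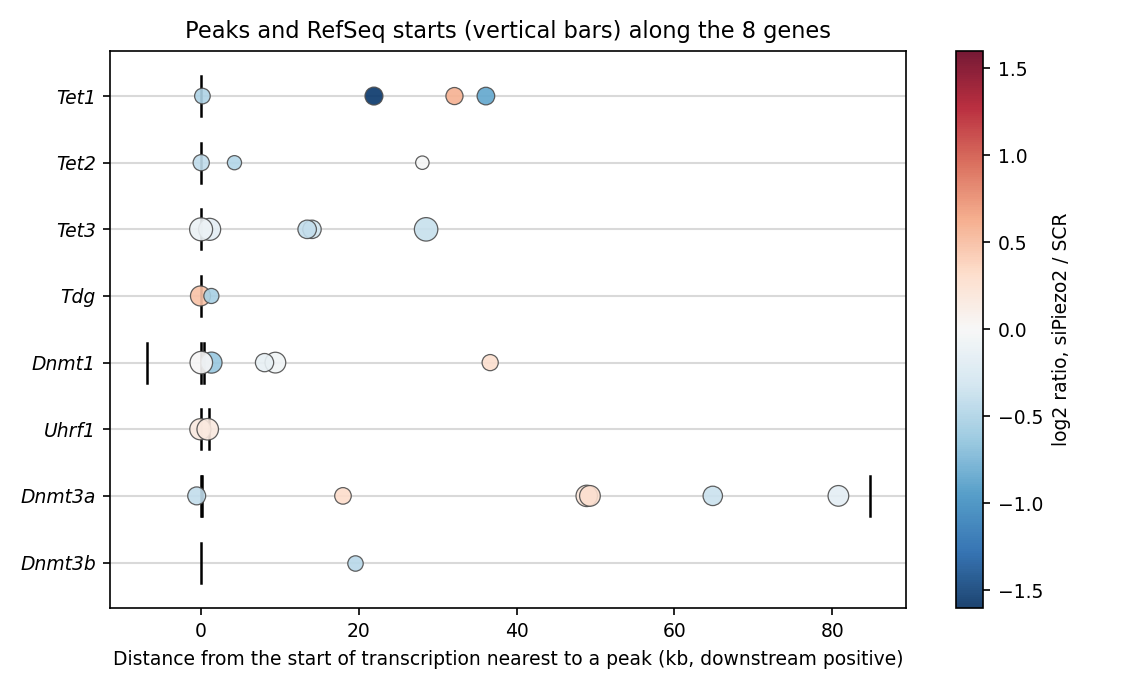
Each row is a gene, the horizontal axis is the distance in kb from its transcription start nearest to a peak, vertical bars are RefSeq starts, and each circle is an ATAC-seq peak with its area scaled to the mean density and its colour to the log2 ratio of siPiezo2 to SCR. The deepest blue is the Tet1 peak 21.9 kb into the gene, and the row of Dnmt3b has no circle at its start.

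In the deposited table the TET genes had a lower density in the siPiezo2 library at nearly every peak. Of their 12 peaks, 11 had a lower density in siPiezo2, against 63.7% of all peaks in the table, and the median log2 ratio was -0.38, against -0.13 over all peaks. Of the 16 peaks at the other 5 genes, 8 were lower and 8 higher, with a median of -0.026. Under a scaling by the median of ratios, which sets the median of all peaks to 0, 9 of the 12 TET peaks were lower with a median of -0.25, and 6 of the 16 others with a median of 0.11. The 11 lower peaks cannot be read apart from how peaks entered the table: 9 of the 12 TET peaks were called in SCR only, where a high SCR density admits a peak, and all 9 were lower, as were 73.1% of all peaks called in SCR only. The 3 TET peaks called in both libraries had log2 ratios of -0.83, 0.57 and -0.36. Past a 1.5-fold difference, which was a plain ratio below 0.66 or above 1.5, lay 2 TET peaks on the lower side and 1 on the higher side, all of them at Tet1. By that rule, 14.9% of all peaks were lower and 3.62% higher, so 2 lower peaks among 12 were close to the background.

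Tet1, a TET enzyme with a CpG-binding CXXC domain, had the lowest ratio of the 8 genes. Its 4 peaks summed to 108 in SCR and 71.2 in siPiezo2 (log2 ratio -0.59, 95% interval -0.92 to -0.27, 254 and 115 reads). Its ratio fell just short of the 1.5-fold rule, and 6.40% of genes had a ratio as low or lower. The peak in intron 1 at chr10:62700996-62701375 read 37.2 in SCR and 11.96 in siPiezo2 (log2 ratio -1.56, interval -2.36 to -0.83, 88 and 19 reads). It was the strongest Tet1 peak in SCR and the weakest in siPiezo2, and it had been called as a peak in SCR only. A peak in intron 2 at chr10:62686818-62687171 read 30.7 and 16.9 (log2 ratio -0.83, interval -1.52 to -0.17), and the one beside the start at chr10:62722746-62723116 read 22.0 and 15.4 (log2 ratio -0.49, interval -1.24 to 0.23).

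Tet1 did not move as a block. A second intron 2 peak, at chr10:62690848-62691108 between the ones that were lower, read 17.9 in SCR and 27.0 in siPiezo2 (log2 ratio 0.57, interval -0.077 to 1.21, 42 and 44 reads), the highest ratio of all 28 peaks. Without the intron 1 peak at chr10:62700996-62701375 the summed Tet1 densities were 70.6 and 59.2, and the log2 ratio was -0.25 with an interval of -0.63 to 0.12. That was above the ratios of Dnmt3b, Tet2 and Tet3 with all their peaks kept, and still below the median of all genes, -0.093. The peak left out was picked for its lowest ratio, so the ratio of the gene could only rise. Its rank as the lowest of the 8 genes depended on that peak.

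Tet2, which has no CXXC domain, showed a smaller difference on few reads. Its 3 peaks summed to 55.0 in SCR and 43.9 in siPiezo2 (log2 ratio -0.32, interval -0.76 to 0.11, 126 and 72 reads). The promoter peak at chr3:133250014-133250249 read 23.1 and 17.3, and the peak 4.2 kb downstream read 18.1 and 12.8. The third, 28.1 kb downstream, read 13.9 and 13.8 and had the lowest mean density of all 28 peaks. Every Tet2 interval included no difference.

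Tet3, the enzyme the study is named for, had the highest summed density of the 8 genes in SCR when overlapping windows were all counted. With 1 peak kept of each overlapping pair, Dnmt3a stood above it. The 5 Tet3 peaks, none of them past 1.5-fold, summed to 188 in SCR and 157 in siPiezo2 (log2 ratio -0.26, interval -0.49 to -0.031, 464 and 246 reads). All 5 were lower in siPiezo2, with log2 ratios from -0.40 to -0.091, and 4 of 5 under the median-of-ratios scaling. Of the 5, 4 were called in SCR only, a class in which 73.1% of all peaks were lower, and 1 was called in both libraries. The least different was the peak over the 5′ UTR at chr6:83418472-83418839, with 41.9 in SCR and 39.2 in siPiezo2, and the exon peak 1.1 kb into the gene read 39.4 and 35.2. The intron 2 peak at chr6:83389924-83390340 was the densest of all 28 peaks in SCR and read 47.7 and 36.8. The neighbouring intron peaks 13.5 and 14.1 kb into the gene read 29.97 and 22.5, and 28.8 and 23.1.

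The Tet3 windows were not independent, since those of its neighbouring peaks shared 69.4% and 45.8% of their length, so a read could count in both. With 1 peak kept of each overlapping pair the log2 ratio was -0.28, but the interval, at -0.58 to 0.0093, took in 0. It also took in 0 under each of the 3 other scalings, with upper ends of 0.11, 0.057 and 0.056. Peaks called in both libraries with as many reads as these also varied more than counting alone gives, by a variance 1.62 times as large over 12382 peaks. Widened to match, the Tet3 interval ended at 0.031 and that of Tet1 at -0.18. At equal read totals the widened Tet1 interval ended at 0.017 and so took in 0 as well, while under the other scalings it ended at -0.043 and -0.094.

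**Figure D3:**
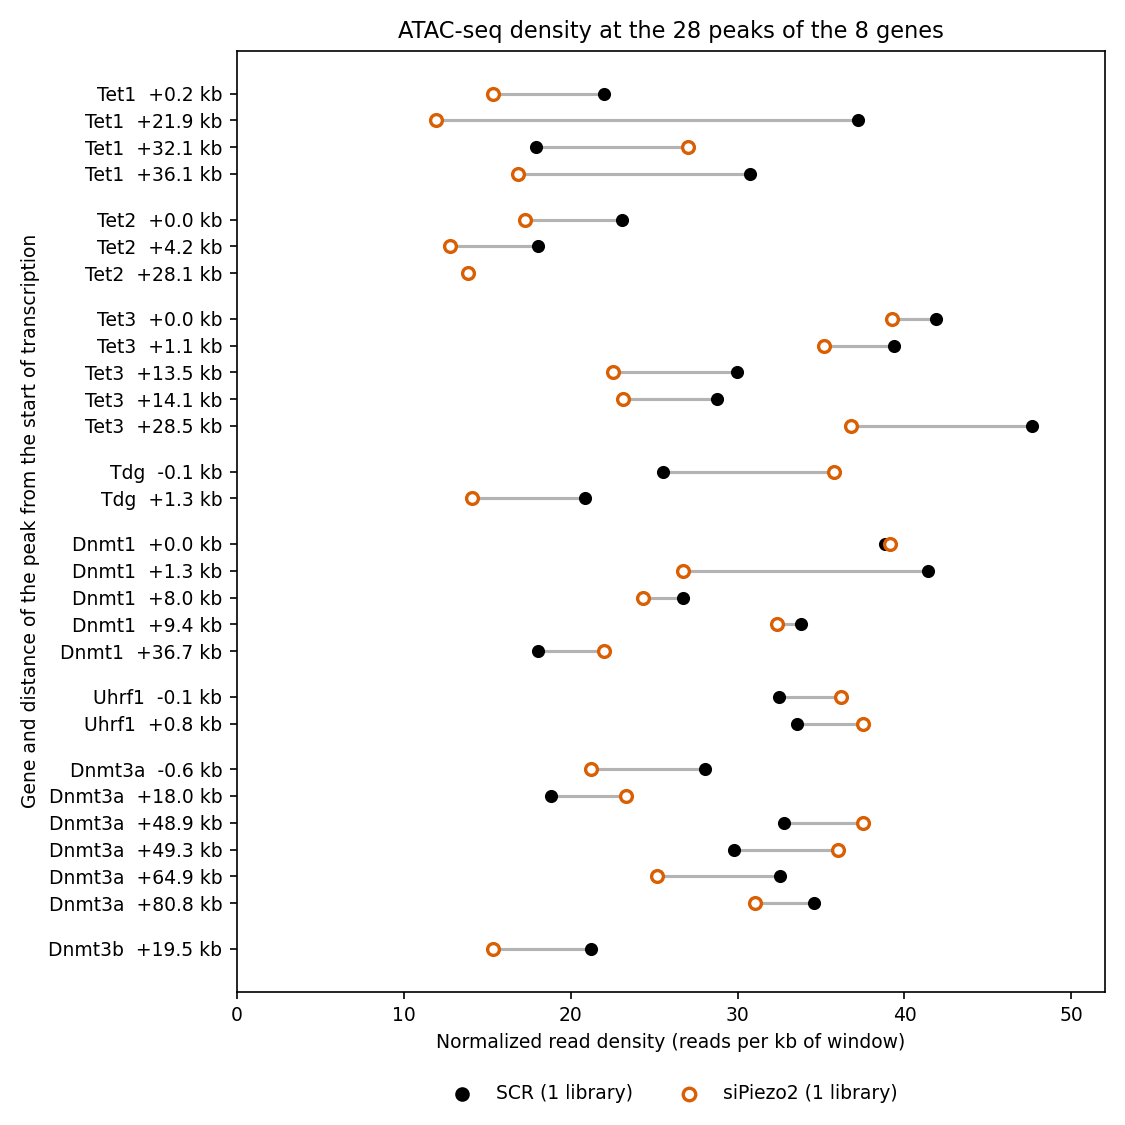
Each line is 1 of the 28 peaks, labelled by its gene and its distance in kb from the transcription start nearest to a peak, and the horizontal axis is the normalized read density in reads per kb (filled black, SCR; open orange, siPiezo2; 1 library each, so no error bars). At the TET genes the orange circle lies to the left of or on the black one at every peak except the Tet1 peak 32.1 kb into the gene, whereas at the lower rows it falls on either side.

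Tdg, the glycosylase that follows the TET enzymes, split between its peaks. The promoter peak at chr10:82465457-82465738 read 25.5 in SCR and 35.8 in siPiezo2 (log2 ratio 0.47, interval -0.073 to 1.01, 62 and 57 reads). The intron 1 peak, 1.3 kb downstream of the start, read 20.9 and 14.1 (log2 ratio -0.53). Their windows shared 30.9% of their length, and the sum of 46.4 in SCR and 49.9 in siPiezo2 gave a log2 ratio of 0.10 (interval -0.33 to 0.53).

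The intervals of both genes of the maintenance pair took in 0. Dnmt1, the maintenance methyltransferase, had 5 peaks that summed to 159 in SCR and 145 in siPiezo2 (log2 ratio -0.13, interval -0.38 to 0.10, 388 and 229 reads). Its 5′ UTR peak at chr9:20864095-20864393 read 38.8 and 39.1, a log2 ratio of 0.0096. The intron 1 peak beside it, at chr9:20862793-20863111, read 41.4 and 26.8 (log2 ratio -0.61, interval -1.17 to -0.079), a difference past 1.5-fold, although their windows shared 35.4% of their length. The remaining Dnmt1 peaks read 33.8 and 32.3, 26.7 and 24.3, and 18.1 and 22.0.

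Uhrf1, which brings DNMT1 to hemimethylated CpG, had the highest ratio of the 8 genes under the authors' normalization, but not at equal read totals, where Tdg had 0.28 and Uhrf1 0.25, nor with separate windows, promoter peaks or the strongest peak alone, where Tdg had 0.47. The peak at its start read 32.5 in SCR and 36.2 in siPiezo2, and that 0.8 kb into the gene 33.6 and 37.5. The sum of 66.0 and 73.7 gave a log2 ratio of 0.16 (interval -0.20 to 0.51, 163 and 116 reads), and 80.4% of genes had a ratio as low or lower. Both differences were within counting error, and the windows shared 53.35% of their length.

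Among the de novo enzymes, Dnmt3a was the gene with most peaks. Its 6 peaks summed to 177 in SCR and 174 in siPiezo2 (log2 ratio -0.019, interval -0.24 to 0.20, 429 and 277 reads). The near equality of the sums hid peaks on either side. The peak upstream of the start read 28.1 and 21.2, and those 64.9 and 80.8 kb into the gene 32.6 and 25.2, and 34.6 and 31.1, whereas the peaks 17.99, 48.9 and 49.3 kb in read 18.8 and 23.3, 32.8 and 37.5, and 29.8 and 36.0. The last pair shared 79.55% of their windows and so counted much the same reads.

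Dnmt3b, the other de novo enzyme, had a single peak, at chr2:153510771-153510999, which the table tied to a short internal transcript 19.5 kb past the RefSeq start. It read 21.2 in SCR and 15.3 in siPiezo2 (log2 ratio -0.44, interval -1.20 to 0.28) on 49 and 25 reads, the fewest of any of the 8 genes, and the difference was within counting error. No peak lay at the RefSeq start despite 30 CpG sites in its window. A list of called peaks gives no level for a site without one, so how open that start was cannot be read from it.

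**Figure D4:**
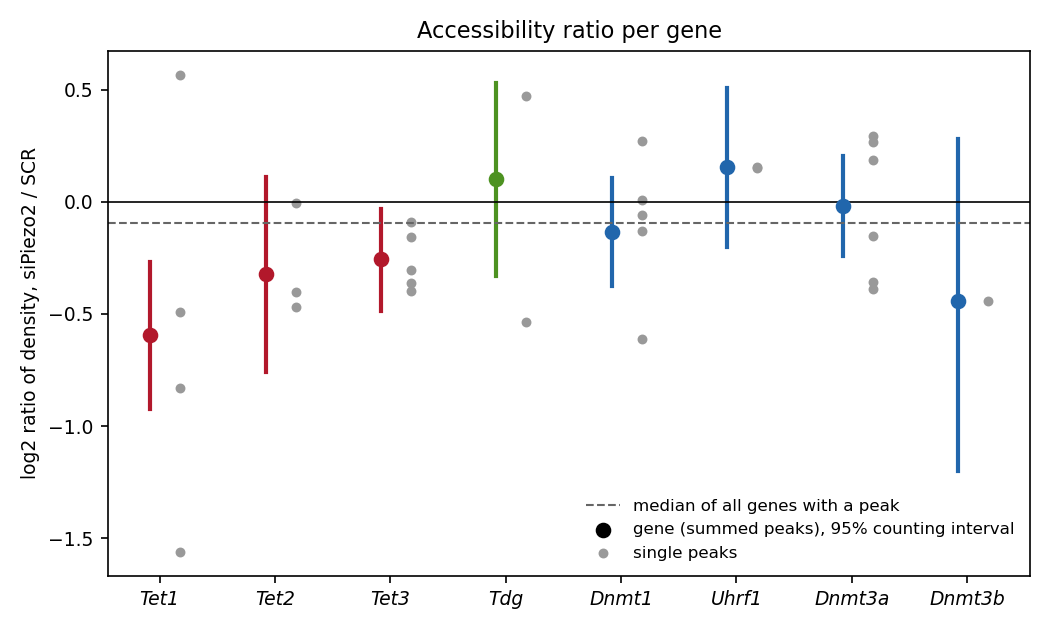
The log2 ratio of the density in siPiezo2 to that in SCR is on the vertical axis; coloured dots are the genes, summed over their peaks, with 95% exact counting intervals, grey dots are single peaks and the dashed line is the median of all genes, -0.093. The intervals of Tet1 and Tet3 end below 0 and those of the other 6 genes cross it; with 1 library per condition the bars hold no spread between replicates.

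Ordered by ratio under the authors' normalization, the genes ran from Tet1 through Dnmt3b, Tet2, Tet3, Dnmt1, Dnmt3a and Tdg to Uhrf1. The counting intervals of every pair of neighbours in this order overlapped. The ratio was below SCR for 6 of the 8 genes, against 62.6% of all genes (4 of 8 under the median-of-ratios scaling, against 44.0% of all genes, with Dnmt1 and Dnmt3a then above 0), and the median was -0.20, against -0.093. None of the 8 was past 1.5-fold in either direction, against 6.72% of genes lower and 1.72% higher. The interval lay below 0 for Tet1 and Tet3, as for 15.2% of all genes (that of Tet3 took in 0 under all 3 other scalings), and above 0 for none, as for 4.37%.

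Past 1.5-fold lay 3 of the 28 peaks on the lower side, 2 at Tet1 and 1 at Dnmt1, and 1 on the higher side, at Tet1, against 14.9% and 3.62% of all peaks. At equal read totals 2 were lower and 2 higher, against 8.07% and 8.73% of all peaks, so the excess of lower peaks in the table depends on the scaling. Counted by direction alone, 19 of the 28 had a lower density in siPiezo2, which is 67.9% and close to the 63.7% of all peaks. The median log2 ratio of -0.15 was also near that of all peaks. There were 3 intervals below 0, the Tet1 peaks in introns 1 and 2 and the Dnmt1 peak in intron 1, and none above 0, against 11.4% and 3.63% of all peaks. As a set, then, the 28 peaks had counts and a median close to those of the whole table, with the median of the TET peaks below it and that of the others above it. The 2 groups also differed in how their peaks were called: 9 of the 12 TET peaks were called in SCR only, against 8 of the 16 others. The part of the calls in the split was not tested. The grouping into TET and other genes follows their enzymatic roles, and no test of the difference between them was possible with 1 library per condition.

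**Figure D5:**
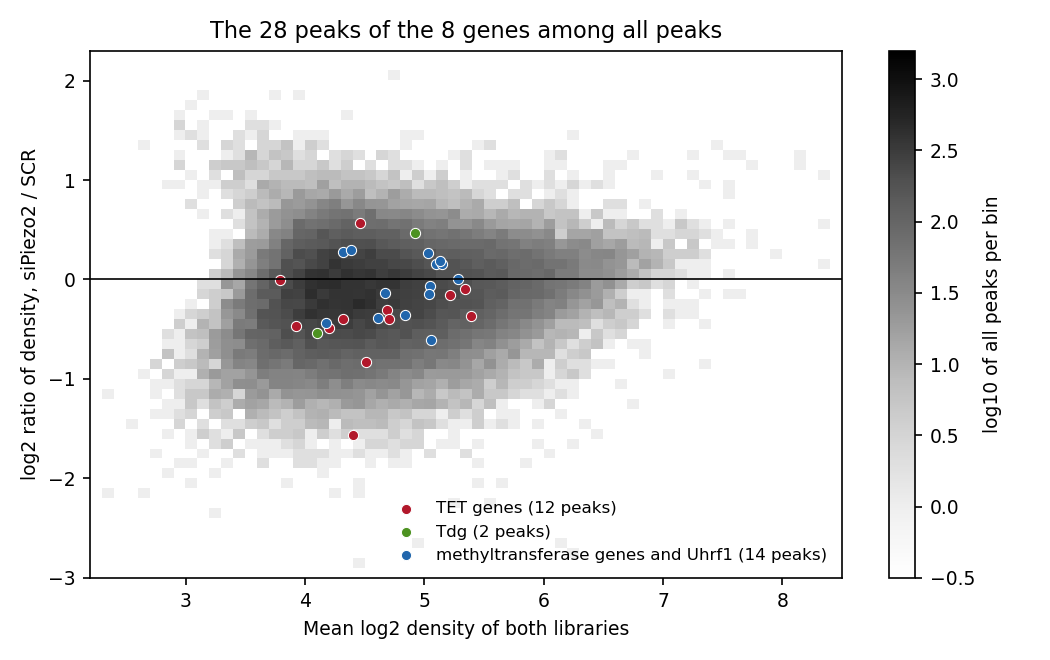
The mean log2 density of both libraries is on the horizontal axis and the log2 ratio of siPiezo2 to SCR on the vertical axis; grey squares count all peaks on a log10 scale (peaks outside the axes are not drawn), and coloured dots are the 28 peaks of the 8 genes. The dots sit within the grey cloud, the 12 red TET peaks mostly under the line at 0, and the lowest is the Tet1 intron 1 peak at -1.56.

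The 28 peaks were of middling strength. Their mean densities ran from 13.9 to 42.2 with a median of 26.1, against 23.3 over all peaks, and 19 lay above the median of the table. Reads per window ran from 31 to 120 in SCR and from 19 to 61 in siPiezo2. Of the 28, 11 were called in both libraries, 17 in SCR only and 0 in siPiezo2 only, against 33.8%, 64.0% and 2.16% of all peaks. The SCR library had more reads in these windows, and the part of read number in the calls was not tested. The call itself depends on the densities, so a lower ratio among peaks called in SCR only is built in. The log2 ratios of the 11 called in both had a median of -0.061, where all such peaks had 0.0025, and those of the 17 called in SCR only a median of -0.30, where all such peaks had -0.23. The TET peaks had 3 called in both and 9 in SCR only, and the other peaks 8 and 8.

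TET peaks near a start and far from one were both mostly lower in siPiezo2. The 3 TET peaks within 1 kb of a start had log2 ratios from -0.49 to -0.091, and the 9 farther away a median of -0.36 with 8 lower in siPiezo2. Called in SCR only were all 3 near a start and 6 of the 9 farther away, against 42.4% and 70.6% of all such peaks. The lower ratios therefore cannot be read apart from how these peaks entered the table. In the table as a whole 55.5% of the peaks within 1 kb were lower, with a median of -0.042, and 66.2% of those farther away, with a median of -0.17. The scaling also matters at this strength: it raised the ratio of siPiezo2 to SCR at the 28 peaks by 0.41 to 0.69 on the log2 scale, lifting the siPiezo2 densities by 0.21 to 0.34 and lowering those of SCR to match, and the unscaled reads of all peaks had a median log2 ratio of -0.72 and those of the 28 one of -0.81.

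The wider pathway was close to the background. Of 49 further genes of DNA methylation, 41 carried a peak, and 24 of these were lower and 17 higher in siPiezo2, with a median log2 ratio of -0.028. That is 58.5% lower, against 62.6% of all genes, whose median was -0.093. Higher past 1.5-fold were 2 genes, Smug1 and Ogt, which is 4.88% of the 41, against 1.72% of all genes. Smug1, a uracil-DNA glycosylase, read 23.6 and 35.7 (log2 ratio 0.58, interval 0.021 to 1.13). Ogt, the O-GlcNAc transferase that binds TET proteins, read 19.4 and 30.3 (log2 ratio 0.61, interval 0.0044 to 1.23). Widened by the same factor as for Tet1 and Tet3, the lower ends were -0.13 for Smug1 and -0.16 for Ogt, so both intervals took in 0.

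The groups of this list had medians on both sides of 0. The cofactors of maintenance and de novo methylation had a median of 0.00078 over 6 of 9 genes, with none at Hells, Cdca7 or Dppa3. The base excision genes had a median of 0.06 over 13 of 15, regulators of TET activity and 2-oxoglutarate metabolism -0.18 over 7 of 8, readers of methylated DNA -0.08 over 8 of 9 and genes of methyl donor supply -0.06 over 7 of 8. No group had more than 1 gene past 1.5-fold in a direction.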

How the data were processed

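ATAC-seq was read from 1 deposited table of peaks for 2 libraries. The authors aligned reads with BWA 0.7.12 (labels: mm10), removed duplicates with Picard, called peaks with MACS2, merged both peak sets, and deposited for each peak a signal that was MA-normalized, a read density in a window of 2000 bp. The methods describe another way of counting over consensus peaks; the MA normalization is per the file headers. The deposited log2 fold change and p-value columns hold the authors' own comparison and were not used. The table's transcript starts follow GRCm39, whereas RefSeq promoters were GRCm38.p6; the builds were linked through transcript identifiers only.

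Peaks were taken by symbol and summed per gene. Ratios were log2((siPiezo2 + 1)/(SCR + 1)). Whole reads were recovered from the densities for 99.998% of peaks (tolerance 0.02), after subtracting 1 added read per window, and gave exact (Clopper-Pearson) 95% intervals, shifted by the normalization at each peak. Gene and pathway lists were chosen with earlier results of these data known. The named genes were the 8 members and pathway genes past 1.5-fold. A result for 1 pathway gene is not reported here. Statements that single out 1 peak were made after its values were seen. Alternatives changed the scaling, pseudocount, fold and peaks used. Scripts were tested on simulated data and used Python 3.11.15, numpy 2.4.6, pandas 2.3.3 and scipy 1.17.1. Peak sequences were not analysed here.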

Additional observations from a re-analysis of the deposited data

How the results depend on the processing

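Of 54 alternative values for the 8 genes, 51 stayed within the gene's main interval. Those that did not were Tet1 from its strongest peak (-1.56) and without that peak (-0.25, chosen after seeing the data), and Dnmt3a from its promoter peak (-0.39). Tet1, Tet2, Tet3 and Dnmt3b stayed below 0 and Tdg and Uhrf1 above 0 under every alternative that gave a value, while Dnmt1 ranged from -0.20 to 0.0096 and Dnmt3a from -0.39 to 0.19. The Tet3 interval stayed below 0 in 1 of 6 alternatives and that of Tet1 in 6 of 7, the exception being without its intron 1 peak. Scaling by the median of ratios raised all peaks by 0.13 on the log2 scale; the median of the 28 peaks was then -0.019 (all peaks 0), that of the pathway list 0.11 (all genes 0.043), and 2 peaks were lower and 2 higher past 1.5-fold (9.24% and 6.97% of all peaks), as they were at equal read totals (8.07% and 8.73%), against 3 and 1 by the authors' normalization. With a 2-fold threshold 1 peak was lower and 0 higher (3.50% and 0.622% of all peaks), against 3 and 1 at 1.5-fold. The promoter-only alternative gave no value for Tet1, Tet3 and Dnmt1. No paired analysis was possible because each condition had 1 library. Depth limits single peaks: the siPiezo2 windows held 19 to 61 reads.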

Other observations

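Peaks that flank the 8 genes, but that the table assigned to other genes or to none, were read for context. Beside the Tet3 start, in the divergent noncoding gene B230319C09Rik, a peak at chr6:83419602-83419828 read 39.1 in SCR and 41.1 in siPiezo2, and the next, at chr6:83420579-83420779, read 29.0 and 37.3 (log2 ratio 0.35, interval -0.17 to 0.87). Both densities were higher in siPiezo2, and neither interval left out 0. The window of the first shared 47.0% of its length with that of the Tet3 5′ UTR peak and 51.8% with that of the second, so these peaks count some of the same reads. Downstream of Uhrf1, the promoter peak of Kdm4b, a histone demethylase that needs 2-oxoglutarate as TET enzymes do, read 98.9 and 131 (log2 ratio 0.40, interval 0.12 to 0.67). The intergenic peak upstream of Tet1 at chr10:62750149-62750460 read 12.6 and 15.6, and that upstream of Tet2 at chr3:133306658-133306961 read 15.6 and 13.3. Among markers of other cell types, the mural genes Rgs5, Myh11 and Cspg4 had log2 ratios of -1.16, -0.23 and 0.16, and the endothelial genes Cdh5, Pecam1, Tek and Kdr of 0.70, 0.0068, -0.063 and -0.098. Rgs5 (interval -1.52 to -0.82) and Cdh5 (interval 0.32 to 1.08) were past 1.5-fold, and the intervals of the other mural and endothelial genes took in 0. Whether the mix of cells differed between the libraries was not tested.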
